A study of Mus musculus with 12 samples.

Results

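Papilin is a secreted glycoprotein of the extracellular matrix that shares its modular build with the noncatalytic part of the ADAMTS proteases. Its gene Papln was examined together with the protease genes Adamts1, Adamts2, Adamts4, Adamts5, Adamts9 and Adamts10 and with Adamtsl4, an ADAMTS-like gene whose product has no protease domain. These 8 genes were chosen by symbol, with results of these data already known, out of 14496 genes in the deposited table. All 8 were present and all 8 passed the filter on low values. Papln passed that filter, a log2 CPM (CPM being reads scaled to a common library size) of at least 0 in at least 6 tumors, only through the 6 tumors of the group in which it was high, so its difference between groups is a description. The contrast of the other 7 genes is a description too, because the choice was made with it in view.

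RNA was sequenced from 12 whole subcutaneous tumors of Renca cells, a renal carcinoma line, in BALB/C mice, each taken 14 days after inoculation and holding tumor cells together with stroma. In 6 of them a further tumor was growing in the kidney (the IK group), and the other 6 had no such tumor (the alone group, named SC in the labels). The labels give neither age nor sex, do not name the cells of the kidney tumor, and leave it unsaid if each sample was its own mouse; the p-values then reflect only how far these 12 samples differ, which may be technical in part. All tumors came from 1 cell line, and the renal epithelial genes Krt8, Krt18, Pax8 and Cdh16 were present at mean log2 CPM of 9.98, 8.47, 6.57 and 9.88 in the IK group and 10.02, 8.54, 6.70 and 10.01 in the alone group. Of the other genes of that epithelial list, Cdh1 (6.80 and 6.85) and Cldn4 (6.63 and 6.64) were also present, Epcam was low at 2.17 and 2.11, and Krt19 was not analysed here.

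ADAMTS proteases are secreted metalloproteases that bind the matrix through thrombospondin repeats. ADAMTS1, ADAMTS4, ADAMTS5 and ADAMTS9 cut large aggregating proteoglycans such as versican and aggrecan. ADAMTS2 removes the amino-terminal propeptide of fibrillar procollagens, a step of collagen fibre assembly, and ADAMTS10 and ADAMTSL4 act on or bind fibrillin microfibrils. Papilin lies in basement membranes and, in studies of the fly protein, inhibited an ADAMTS protease. In solid tumors these enzymes are made by stromal cells as well as by tumor cells.

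Promoter sequence from RefSeq, build GRCm38.p6, was found for 5 of the 8 genes. Shown here are the 250 bases before the start site, 5′ to 3′ on the gene's strand, of Papln, the gene that separated the groups, of Adamts1, the most abundant and steadiest gene, and of Adamts2, which varied most within groups. The deposited values were made on the older build mm9, so these coordinates are those of GRCm38.p6 only. Capitals mark a GC box (GGGCGG on either strand) or a TATA box (TATAAA on either strand).
Papln, chr12:83763384-83763633, plus strand: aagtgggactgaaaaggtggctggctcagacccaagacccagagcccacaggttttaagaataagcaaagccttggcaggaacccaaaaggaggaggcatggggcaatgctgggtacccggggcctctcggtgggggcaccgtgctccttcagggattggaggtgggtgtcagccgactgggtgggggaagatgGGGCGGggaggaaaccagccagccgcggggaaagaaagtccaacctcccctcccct
Adamts1, chr16:85803114-85803363, minus strand: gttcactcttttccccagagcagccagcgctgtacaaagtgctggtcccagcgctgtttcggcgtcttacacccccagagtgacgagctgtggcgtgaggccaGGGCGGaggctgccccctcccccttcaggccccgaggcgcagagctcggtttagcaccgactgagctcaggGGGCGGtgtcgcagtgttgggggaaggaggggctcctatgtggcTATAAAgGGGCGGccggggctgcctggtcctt
Adamts2, chr11:50601835-50602084, plus strand: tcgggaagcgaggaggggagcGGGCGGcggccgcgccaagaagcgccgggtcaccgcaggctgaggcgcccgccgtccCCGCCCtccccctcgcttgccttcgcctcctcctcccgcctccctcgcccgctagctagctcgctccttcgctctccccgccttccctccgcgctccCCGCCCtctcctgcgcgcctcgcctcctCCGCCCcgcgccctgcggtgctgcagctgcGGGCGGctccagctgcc

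The window of Adamts1 held 1 TATA box, 32 to 27 bases before the start, and 3 GC boxes. Those of Papln and Adamts2 held no TATA box, with 1 GC box for Papln, 56 to 51 bases before the start, and 5 for Adamts2. Among all 32851 promoter windows of that length, 12.4% held a TATA box and 32.7% a GC box. Neither an AP-1 site (TGANTCA, 6.75% of windows) nor the hypoxia response core ACGTG (16.6%) was found on either strand in the windows of Papln, Adamts1, Adamts2, Adamts9 and Adamtsl4. These motifs overlap no other motif searched. GC content was 61.6% for Papln, 65.6% for Adamts1 and 78.0% for Adamts2, against a median of 52.4% over all windows. A match describes these letters and says nothing of binding.

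Levels of the 8 genes were compared per kilobase of exon, on the linear scale of CPM per kb, with lengths from GENCODE M21. Adamts1 was by far the most abundant, at 126 ± 5.3 CPM per kb in the IK group and 128 ± 6.6 alone (SD, n = 6 each). Adamts5, an aggrecanase gene, followed at 19.3 ± 1.2 and 20.2 ± 1.8. Adamts2 and Adamts4 lay next to each other, at 6.75 ± 1.8 and 8.95 ± 2.9 for Adamts2 and 6.69 ± 0.82 and 7.73 ± 1.7 for Adamts4. Adamts9 stood at 4.04 ± 0.40 and 4.47 ± 0.45. Adamtsl4 and Adamts10 formed another pair, at 1.47 ± 0.18 and 1.57 ± 0.28 for Adamtsl4 and 1.25 ± 0.22 and 1.58 ± 0.37 for Adamts10. Papln was the lowest by a wide margin, at 0.262 ± 0.018 and 0.148 ± 0.022. From the highest gene to the lowest the mean level per kb over 12 tumors spanned 620.5-fold. The order held in every tumor between neighbours except for Adamts2 over Adamts4 (7 of 12 tumors) and Adamtsl4 over Adamts10 (9 of 12), whose ranges overlapped.

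Each library gave 53312559 to 66142468 reads. Among the 8 genes, counting error was below the spread between tumors for all except Papln. Papln rested on 81 to 95 reads per tumor in the IK group and 39 to 61 alone. On the log2 scale the Poisson counting error alone would give an SD of 0.15 and 0.21, and the observed SDs were 0.10 and 0.22. Reads of the other 7 genes ran from 288 for Adamtsl4 to 45737 for Adamts1. For Adamtsl4 the counting SD was 0.075 in the IK group and 0.073 alone, beside observed SDs of 0.17 and 0.24. Strand handling was not given in the sources used here. Exons of Adamts4 overlap another gene on the opposite strand, and those of Adamts9 overlap A730049H05Rik and Gm15737, also on the opposite strand. Whether reads of the overlapping stretches were separated by strand is not known. The values of Adamts4 and Adamts9 are uncertain to that extent.

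Papln stood higher in the tumors that grew beside a kidney tumor. Its reads in replicates 1 to 6 of the IK group were 95, 82, 81, 89, 86 and 94, and in the alone group 39, 61, 40, 47, 59 and 49. As log2 CPM the IK values were 0.65, 0.53, 0.48, 0.71, 0.48 and 0.51, and those alone were -0.52, -0.03, -0.49, -0.41, -0.10 and -0.11. Every IK tumor lay above every tumor alone, with a gap of 0.51 between the lowest of one group and the highest of the other. The mean was 0.56 ± 0.10 with a kidney tumor and -0.28 ± 0.22 alone (SD, n = 6 each), a difference of 0.84 on the log2 scale (SE 0.12, 95% interval 0.58 to 1.10), or 1.79-fold.

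Papln had the smallest unadjusted p of the 14008 genes tested, 1.22e-05, and yet did not pass, with a Benjamini-Hochberg adjusted p of 0.17 in limma. In size its difference was exceeded by 194 genes. It passed when variances were shrunk to a common value without the trend on mean level (adjusted p = 0.018), with array weights (0.037) and without replicate 2 of the IK group (0.034, all in limma). Array weights called 134 genes higher and 411 lower, and leaving out that replicate called 25 and 146. Without the filter on low values the adjusted p of Papln was 0.24 (limma). Since Papln passed the filter through its high group, all these p-values are descriptions. Quantile normalization moved the difference to 1.37 (limma, adjusted p = 0.41).

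**Figure D1:**
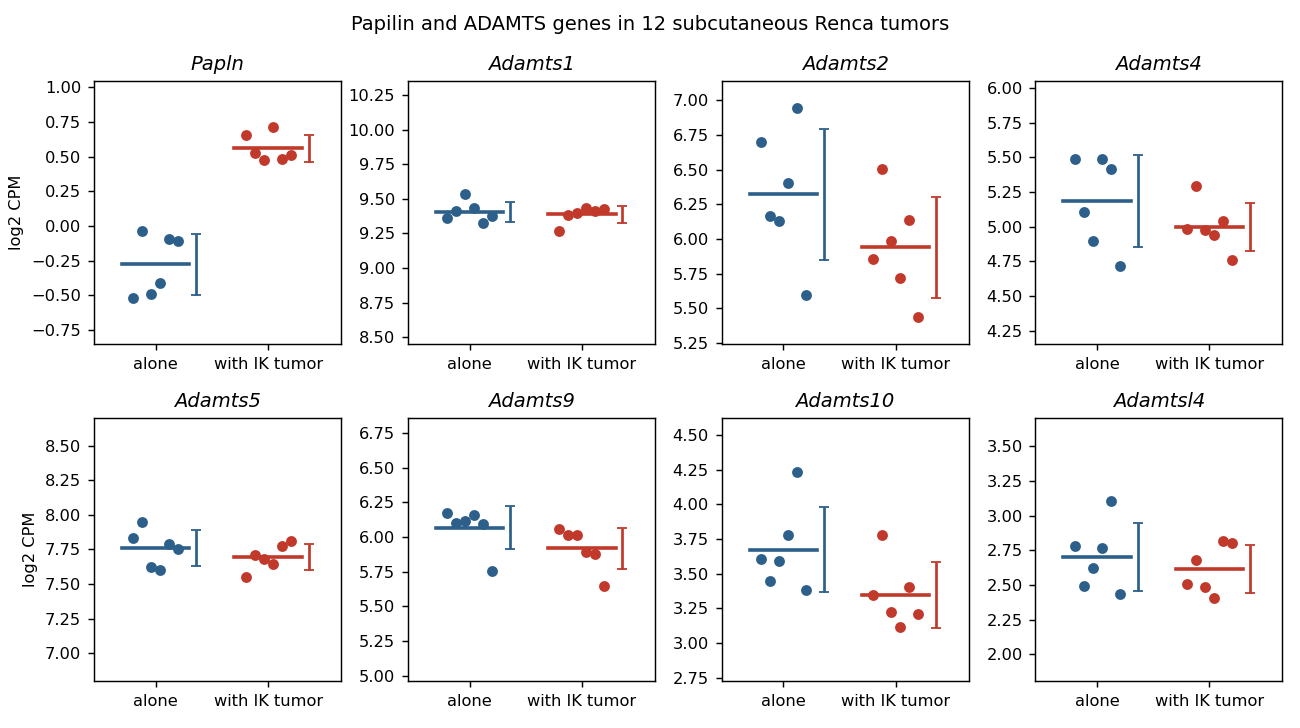
Level of the 8 genes in each tumor, as log2 CPM on the vertical axis (each panel spans the same number of log2 units), for tumors alone (blue) and with a kidney (IK) tumor (red); points are the 6 tumors of a group, horizontal lines the means and error bars the SD. Only in the Papln panel do the groups lie apart, at 0.48 to 0.71 with an IK tumor and -0.52 to -0.03 alone.

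By the fit across all genes, 0 of the 8 genes passed an adjusted p of 0.05 in either direction, against 0% of the 14008 genes tested (limma, Benjamini-Hochberg). An unadjusted p under 0.05 was reached by 2 of 8, Papln higher and Adamts10 lower, against 11.5% of all genes (5.86% higher with 821 genes and 5.62% lower with 787), and limma voom on recovered reads also called 0 genes after adjustment, with 840 higher and 833 lower at an unadjusted p under 0.05. The groups did not overlap for 1 of 8 genes, Papln, against 0.478% of all genes in either direction (0.278% higher without overlap). Mean levels of the other 7 genes were lower beside a kidney tumor, where 46.7% of all tested genes had a lower mean. The median difference of the 8 genes was -0.12, against 0.01 over all genes.

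Among the proteoglycan-cleaving enzymes, Adamts1 differed least. Its log2 CPM ran from 9.27 over a median of 9.41 to 9.43 in the IK group and from 9.32 over 9.40 to 9.53 alone. The groups overlapped, and the mean difference was -0.02 (SE 0.04, 95% interval -0.11 to 0.07; limma, adjusted p = 0.84). That interval lies within 0.11 log2 units of 0. Without replicate 1 of the IK group, its lowest tumor, or replicate 3 alone, its highest, the sign turned, to 0.0044 and 0.0057.

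Adamts5 lay at 7.55, 7.70 and 7.81 (lowest, median and highest log2 CPM) in the IK group and at 7.61, 7.77 and 7.95 alone. Replicate 2 alone was the highest of all 12 tumors, and the groups overlapped. The difference of -0.06 (SE 0.06, 95% interval -0.20 to 0.07) did not pass (limma, adjusted p = 0.65), and was -0.026 without replicate 2 alone and -0.035 without replicate 1 of the IK group. Adamts1 and Adamts5 had the smallest spread within groups, with residual SDs of 0.07 and 0.11, where the median over all genes was 0.11.

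Adamts4, an aggrecanase gene known to respond to inflammatory cytokines, lay at 4.76, 4.98 and 5.29 in the IK group and at 4.72, 5.26 and 5.49 alone. Replicates 1, 4 and 5 alone were above every tumor of the IK group, while replicate 6 alone was the lowest of all. The difference was -0.19 (SE 0.14; limma, adjusted p = 0.56). It was -0.28 without replicate 6 alone and -0.12 without replicate 4 alone.

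Adamts9 lay at 5.65, 5.95 and 6.06 in the IK group and at 5.75, 6.11 and 6.17 alone. All 6 tumors of the IK group were below the median of the tumors alone. Replicate 6 alone, at 5.75, stood apart from the other 5 of its group at 6.09 to 6.17. The mean difference of -0.15 (SE 0.08) did not pass (limma, adjusted p = 0.47), and without that tumor it was -0.21 (limma, adjusted p = 0.20). Without replicate 6 of the IK group, its lowest tumor, it was -0.094 (limma, adjusted p = 0.67).

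Adamts2, the procollagen N-proteinase gene, varied most within groups, with a residual SD of 0.42. It lay at 5.44, 5.92 and 6.51 in the IK group and at 5.59, 6.28 and 6.94 alone. Replicate 2 was the highest of the IK group, and replicates 5 and 6 were the highest and the lowest of the tumors alone. The difference of -0.38 (SE 0.22, 95% interval -0.86 to 0.09) did not pass (limma, adjusted p = 0.48).

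Of the microfibril-associated genes, Adamts10 lay at 3.12, 3.28 and 3.78 in the IK group and at 3.38, 3.60 and 4.23 alone. In the IK group 4 of 6 tumors were below the lowest tumor alone, while replicate 2 reached the upper part of the other group. The difference of -0.33 (SE 0.14) had an unadjusted p of 0.041 and an adjusted p of 0.43 (limma), and was -0.22 without replicate 5 alone (limma, adjusted p = 0.77). Adamtsl4 lay at 2.41, 2.59 and 2.82 in the IK group and at 2.44, 2.70 and 3.11 alone. Its difference was -0.09 (SE 0.12; limma, adjusted p = 0.75), and -0.0039 without replicate 5 alone.

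**Figure D2:**
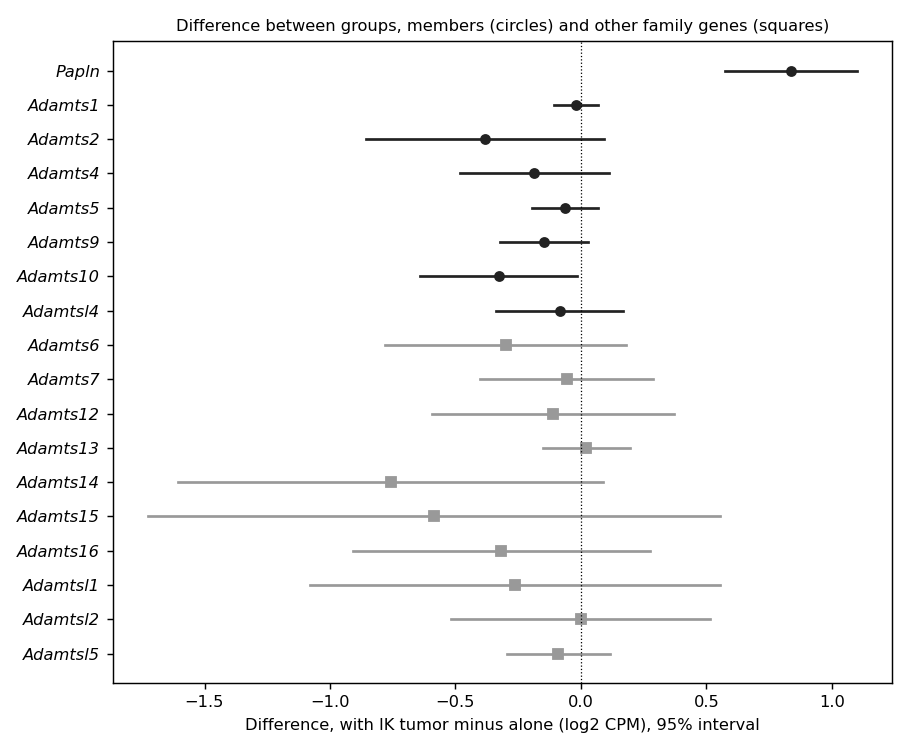
Difference between groups on the log2 CPM scale (horizontal axis, IK group minus alone) with 95% intervals from limma, for the 8 genes (black circles) and the 10 further ADAMTS and ADAMTS-like genes tested (grey squares). Papln, at 0.84, lies to the right of 0, and the interval of Adamts10 (-0.64 to -0.01) ends just below 0.

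The rest of the family gave no call. Of 13 further ADAMTS protease genes, 8 were in the table and 7 were tested, with 0 higher and 0 lower past the threshold and 6 of 7 means lower. Adamts14, a close relative of the procollagen N-proteinase gene Adamts2, had the largest difference at -0.76 (SE 0.39; limma, adjusted p = 0.46), followed by Adamts15 at -0.58 (SE 0.53; limma, adjusted p = 0.63). Of 5 further ADAMTS-like genes 3 were tested, with 0 calls and 3 of 3 means lower, among them Adamtsl1 at -0.26 and Adamtsl5 at -0.09. With single tumors left out, these differences ran from -1.01 to -0.49 for Adamts14, from -0.91 to -0.21 for Adamts15, from -0.52 to -0.03 for Adamtsl1 and from -0.15 to -0.04 for Adamtsl5. The end nearest 0 came without replicate 5 alone for the first 3 and without replicate 6 alone for Adamtsl5.

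Genes for the substrates, basement membrane, inhibitors and processing gave 0 calls in either direction in every list (limma), so the counts of lower means that follow stand beside the 46.7% of all genes with a lower mean. Of 5 tested matrix proteoglycans 4 had lower means, with the small leucine-rich proteoglycan genes Dcn at -0.47 (SE 0.40) and Lum at -0.46 (SE 0.29). Dcn lay at -0.73 when replicate 2 of the IK group was left out and at -0.24 without replicate 5 alone, and Lum reached -0.30 without that same tumor. The versican gene Vcan, a substrate of ADAMTS1, ADAMTS4, ADAMTS5 and ADAMTS9, lay at -0.30. Microfibril and elastic fibre genes had lower means in 9 of 10, with the latent TGF-beta binding protein gene Ltbp1 at -0.44, while the elastin gene Eln lay at 0.79 in the other direction (SE 0.60), or 0.30 without replicate 6 alone. Fibrillar procollagen and processing genes had lower means in 7 of 8, with Col3a1 at -0.44 and Col1a1 at -0.37. Without replicate 5 alone Ltbp1 lay at -0.23, Col3a1 at -0.27 and Col1a1 at -0.23.

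Basement membrane genes, the setting in which papilin is found, had lower means in 9 of 10, with the perlecan gene Hspg2 at -0.26 and the laminin chain gene Lamb1 at -0.20, or -0.11 for both without replicate 5 alone. The TIMP inhibitor genes had lower means in 3 of 3 tested. Timp1 lay at -0.12 (-0.03 without replicate 5 alone) and Timp3, whose product inhibits ADAMTS4 and ADAMTS5, at -0.11, which turned to 0.034 without replicate 5 alone. Genes for processing, secretion and uptake of ADAMTS proteins had lower means in 3 of 6, with the proprotein convertase gene Pcsk6 at -0.53 and the syndecan gene Sdc4 at 0.16. Median differences were -0.30 for proteoglycans, -0.12 for microfibrils, -0.31 for procollagens, -0.06 for basement membrane and -0.11 for TIMPs, and 0.01 for processing and uptake, beside the 0.01 of all genes.

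Whether the 8 genes varied together was examined in the deviations from the group means, which leave out the contrast between groups. Of the 28 pairs, 3 passed an adjusted p of 0.05 by Pearson's r (permutation within groups, Benjamini-Hochberg over 28 pairs). Adamts2 and Adamts4 varied most closely, with Pearson's r = 0.89 (permutation p = 4e-04, adjusted p = 0.011) and Spearman's rho = 0.86 (permutation p = 0.0024, adjusted p = 0.024). Within the IK group r was 0.97 and within the alone group 0.88, and without the 2 tumors farthest from the median of Adamts2 it was 0.90. Adamts2 and Adamts10 gave r = 0.83 (permutation p = 0.0022, adjusted p = 0.030) and rho = 0.89 (permutation p = 0.0012, adjusted p = 0.024), with 0.86 and 0.82 within the groups and 0.77 without the 2 farthest tumors. Adamts4 and Adamts9 gave r = 0.71 (permutation p = 0.0041, adjusted p = 0.039), but rho = 0.63 did not pass (permutation p = 0.048, adjusted p = 0.27). Within the groups that r was 0.69 and 0.76, and 0.67 without the 2 farthest tumors. Adamts4 and Adamts10 did not pass by r = 0.69 (permutation p = 0.021, adjusted p = 0.097). They did pass by rho = 0.86 (permutation p = 0.0026, adjusted p = 0.024), and r was 0.86 without the 2 farthest tumors.

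The count of pairs that passed by r depended on single tumors at the ends of the range. Without replicate 2 of the IK group 2 pairs passed, Adamts2 with Adamts4 and Adamts10 with Adamtsl4. Without replicate 5 alone 1 pair passed (Adamts2 with Adamts4, r = 0.90), and without replicate 6 alone 0 pairs. Adamts2 with Adamts10 (adjusted permutation p of 0.051 to 0.12) and Adamts4 with Adamts9 (0.052 to 0.35) passed in none of these 3 omissions. Papln and Adamts1 correlated with none of the other genes past the threshold, Papln at r of -0.40 to 0.26 (smallest adjusted permutation p = 0.71). Since its spread within groups was close to what counting error would give, such values for Papln say little. Adamts5 likewise lay between -0.32 and 0.26.

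**Figure D3:**
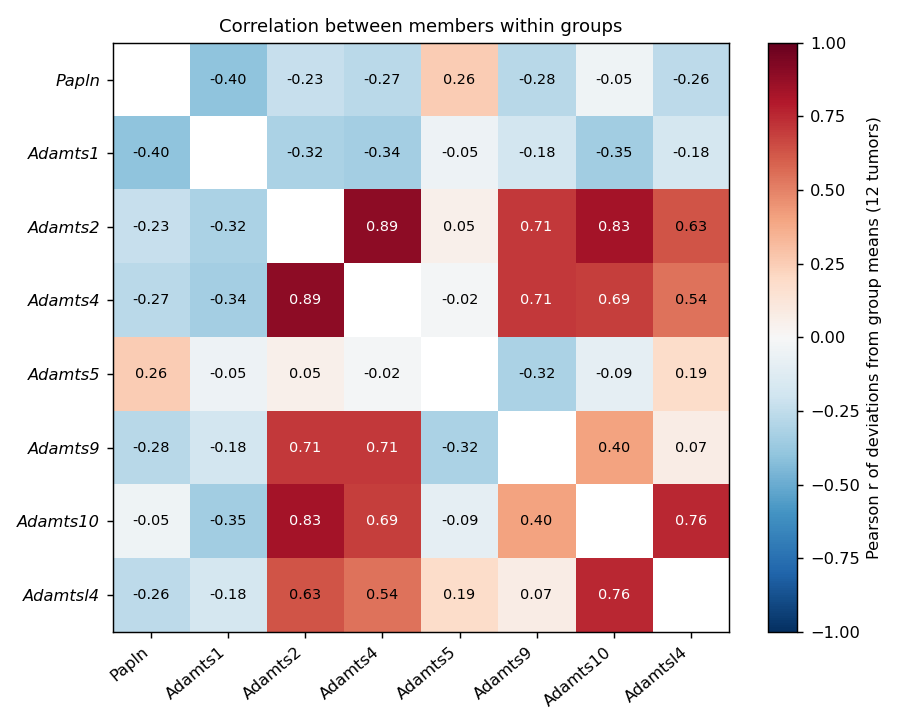
Pearson's r between the 8 genes over 12 tumors, computed on log2 CPM after removal of the group means; red is positive and blue negative, with the value in each cell. Pairs among Adamts2, Adamts4 and Adamts10 lie at 0.69 to 0.89. Adamts9 reaches 0.71 with both Adamts2 and Adamts4, and Adamtsl4 reaches 0.76 with Adamts10. The rows of Papln, Adamts1 and Adamts5 stay between -0.40 and 0.26.

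Whole tumors mix cell types, so the same deviations were compared with mean log2 levels of marker lists that hold none of the 8 genes. Of 80 pairs of a gene and a list, 12 passed an adjusted p of 0.05 by Pearson's r, all of them with Adamts2, Adamts4 or Adamts10. Adamts2 with the fat list passed by rho = 0.83 (adjusted permutation p = 0.038) but not by r = 0.73 (adjusted permutation p = 0.061). Adamts2 followed the fibroblast list (Pdgfra, Fap, Thy1, Postn, Dpt, Pdpn, Col6a3, Loxl1) with r = 0.98 (permutation p = 2e-05, adjusted p = 8e-04) and rho = 0.97 (permutation p = 9e-05, adjusted p = 0.0036). This r was 0.97 and 0.99 within the groups and 0.98 without the 2 tumors farthest from the median score. Adamts10 followed the same list with r = 0.90 (permutation p = 3.7e-04, adjusted p = 0.0074) and rho = 0.91 (permutation p = 5.4e-04, adjusted p = 0.014), and r = 0.74 without the 2 farthest tumors. Adamts4 gave r = 0.88 (permutation p = 9.1e-04, adjusted p = 0.010) and rho = 0.83 (permutation p = 0.0038, adjusted p = 0.038), and r = 0.91 without them.

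Endothelial genes went with the same 3 protease genes. For Adamts4 the endothelial list (Pecam1, Cdh5, Kdr and 7 others) gave the higher r, 0.94 (permutation p = 2.8e-04, adjusted p = 0.0074), with rho = 0.80 (permutation p = 0.0065, adjusted p = 0.052) and r = 0.94 without the 2 farthest tumors. For Adamts2 it gave r = 0.96 (permutation p = 1e-05, the smallest that these permutations can give, adjusted p = 8e-04), with rho = 0.97 (permutation p = 5e-05, adjusted p = 0.0036) and r = 0.92 without them. The hypoxia list ran opposite to Adamts2, at r = -0.78 (permutation p = 6.1e-04, adjusted p = 0.0081) with rho = -0.89 (permutation p = 0.0011, adjusted p = 0.022), and to Adamts4, at r = -0.66 (permutation p = 0.0011, adjusted p = 0.011) with rho = -0.66 (permutation p = 0.038, adjusted p = 0.15). Without the 2 tumors farthest from its median, replicates 1 and 6 of the IK group, these were -0.89 and -0.80. Adamts10 also went with the macrophage list (r = 0.83, adjusted permutation p = 0.018) and the T and NK cell list (r = 0.84, adjusted permutation p = 0.0078). Adamts2 went with the T and NK cell list as well (r = 0.81, adjusted permutation p = 0.018), but rho = 0.63 did not pass (adjusted permutation p = 0.17). Its r with the skeletal muscle list was 0.74 (adjusted permutation p = 0.044), and rho = 0.77 did not pass (adjusted permutation p = 0.066). Those 2 pairs, Adamts10 with macrophage and Adamts10 with endothelium passed in none of the 3 single-tumor omissions given below (adjusted permutation p of 0.061 to 0.26). With all tumors Adamts10 with endothelium had r = 0.78 (permutation p = 0.0058, adjusted p = 0.042) and rho = 0.83 (permutation p = 0.0043, adjusted p = 0.038). Without the 2 farthest tumors that r was 0.64.

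Adamts1, Adamts5, Adamts9, Adamtsl4 and Papln passed with none of the 10 lists. Adamts9 with endothelium (r = 0.69, adjusted permutation p = 0.064) and Adamtsl4 with fibroblast (r = 0.72, adjusted permutation p = 0.068) came near. Without replicate 5 alone Adamts9 with endothelium passed (r = 0.78, adjusted permutation p = 0.035). Against the fibroblast list r was -0.33 for Adamts1, 0.07 for Adamts5 and -0.21 for Papln (adjusted permutation p of 0.57, 0.91 and 0.79). The lists vary together across the same 12 tumors, and a higher share of a cell type cannot be told apart from more RNA of these genes per cell. Without replicate 2 of the IK group 8 pairs passed, without replicate 5 alone 9 pairs and without replicate 6 alone 5 pairs. With all tumors and in each of these 3 fits, 4 pairs passed, which were Adamts2 with fibroblast and endothelium, Adamts4 with endothelium, and Adamts10 with fibroblast.

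**Figure D4:**
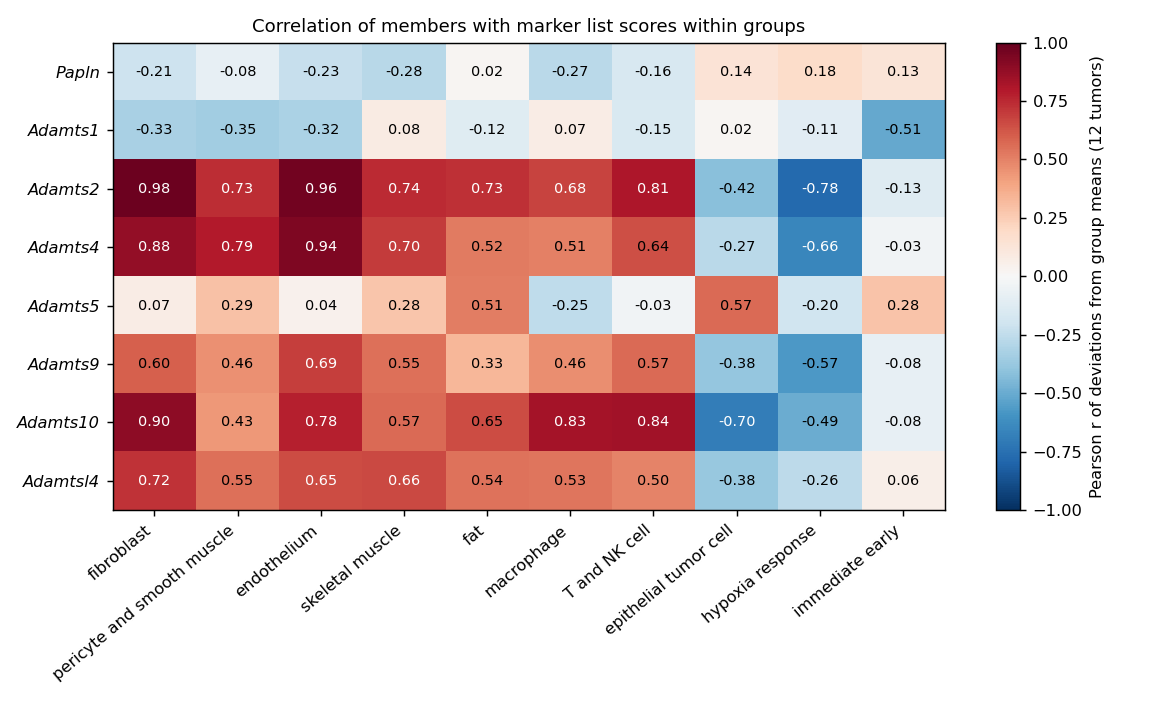
Pearson's r of the 8 genes (rows) with the mean log2 CPM of 10 marker lists (columns) over 12 tumors after removal of the group means. Adamts2, Adamts4 and Adamts10 are high against fibroblast (0.88 to 0.98) and endothelium (0.78 to 0.96). Adamts9 (0.60 and 0.69) and Adamtsl4 (0.72 and 0.65) are lower there, and Papln lies between -0.28 and 0.18 throughout.

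The fibroblast list had lower means in 7 of 8 genes beside a kidney tumor, with 0 calls, a median difference of -0.22, and none of its 8 genes at 0. Its summed level was 965 to 1539 CPM in the IK group and 884 to 2048 alone. Endothelial genes summed to 206 to 286 CPM and 199 to 347, with 9 of 10 means lower, and pericyte and smooth muscle genes to 324 to 425 and 314 to 522, with 7 of 10 lower. T and NK cell genes summed to 11.8 to 86.8 CPM and 17.6 to 105, with 7 of 7 means lower, and hypoxia genes to 2527 to 4920 and 2300 to 3976, with 9 of 9 means higher. The part of these lists in the differences of Adamts2, Adamts4 and Adamts10 between groups was not tested.

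**Figure D5:**
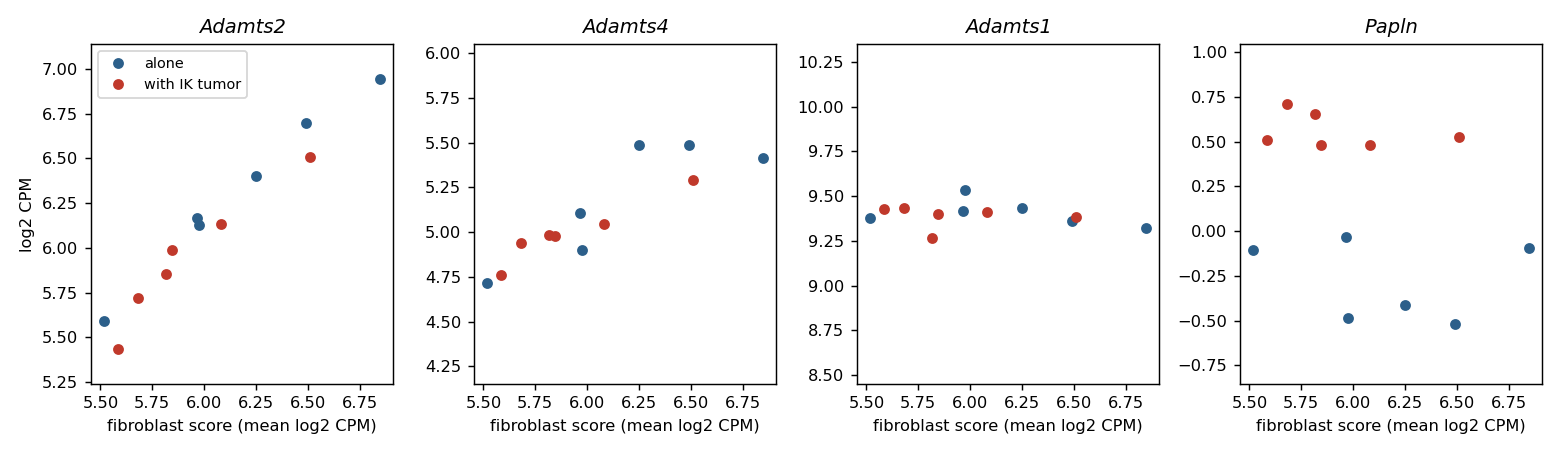
Log2 CPM of 4 genes (vertical axes, equal spans) against the fibroblast score, the mean log2 CPM of 8 marker genes, in each of 12 tumors; blue tumors alone, red tumors with an IK tumor. Adamts2 and Adamts4 climb along the score in both groups, Adamts1 stays between 9.27 and 9.53, and Papln divides by group over the whole range of the score.

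The genes whose deviations were most like those of Adamts4, out of 11491 genes with a symbol and a mean log2 CPM of at least 2, included 2 further members of the family. Those reported here were Adamts16 (r = 0.98), Tenm3 (0.97), Adamts12 (0.97) and Olfml3 (0.96), each over 12 tumors and as a description. None of these 4 differed between groups past the threshold (limma, adjusted p of 0.61 to 0.83), with Adamts16 at -0.32, Tenm3 at -0.25 and Adamts12 at -0.11. For Papln they were Paqr6 (0.80), Trmu (0.79), Krtcap3 (0.78) and Tmem198b (0.75), out of 11492 genes. Such values are the highest of many over only 12 tumors. The spread of Papln within groups was also close to counting error, so its neighbours say little. The r values of Papln were lower than those of Adamts4, and none of its 4 named genes had a difference between groups past the threshold (limma, adjusted p of 0.54 to 0.97).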

How the data were processed

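The authors deposited 1 table of log2 values (log2 CPM) for 14496 Ensembl genes in 12 tumors, 1 column per sample. Tools listed in the submitters' processing notes are limma, HTSeq, TopHat 1.4.1 and CASAVA 1.8.2, with mouse build mm9. Their settings, the strand handling and the annotation are not given in the sources used here. Undoing the log2 gave whole reads plus 0.5 after division by a constant of each column, within 0.001 of a read for 100% of values. Reads recovered this way summed to 53312559 to 66142468 per tumor. The table lists genes that reach a log2 CPM of 0 in 2 or more tumors.

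Symbols and exon lengths came from GENCODE M21 by identifier (14004 genes, 492 without a symbol). Genes reaching a log2 CPM of 0 in 6 or more tumors were kept (14008). They were tested in limma 3.58.1 (R 4.3.3; empirical Bayes with a trend, two-sided, Benjamini-Hochberg over all genes, threshold 0.05) on the log2 values without pseudocount. Differences are the IK group minus the alone group. Correlations used deviations from the group means with 100000 two-sided permutations within groups (numpy 2.4.6). Alternatives were other filters, scalings and variance models, sample weights, limma voom on recovered reads, a replicate block and leaving out each tumor. Only the main limma fit was run on simulated data, with independent normal noise for each gene. The alternatives and the correlations were not simulated.

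The genes and lists were chosen with earlier results of these data known. Named pathway genes were those called, or otherwise the 2 of largest difference in each list. Vcan, Pax8, Krt8, Krt18, Cdh16, Cdh1, Cldn4 and Epcam were named after their values were seen. For Papln and Adamts4 the rule named the 5 most similar genes, of which 1 each is not reported here. Sbsn was the only skin list gene in the table, at a difference of -0.13, so that list was left out of the correlations.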

Additional observations from a re-analysis of the deposited data

Results flagged for a closer look

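A tumor stood apart from the rest of its group in 5 of 38 groups examined, by a gap to its nearest neighbour over the group's range above Dixon's 95% critical value for 6 values. Chance alone gives about 1 in 20. Adamts1 in replicate 1 of the IK group was low, at a log2 CPM of 9.27. Adamts9 in replicate 6 alone was low, at 5.75. The skeletal muscle score of that same tumor was -1.67, the lowest of its group. In replicate 2 of the IK group the macrophage score of 8.05 and the T and NK cell score of 3.5 were the highest of that group. That tumor was also the highest of the IK group for Adamts2 (6.51), Adamts4 (5.29) and Adamts10 (3.78).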

How the results depend on the processing

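The direction of Papln, Adamts2, Adamts4, Adamts5, Adamts9, Adamts10 and Adamtsl4 held under every alternative that could be fitted. Adamts1 turned to 0.0044 without replicate 1 of the IK group and to 0.0057 without replicate 3 alone (range over single tumors left out -0.037 to 0.0057), leaving 6 of 8 genes lower in place of 7. Papln ranged from 0.79 to 0.89 with single tumors left out (limma, adjusted p of 0.034 to 0.69) and passed 0.05 without replicate 2 of the IK group (0.84), without the variance trend (0.84, adjusted p = 0.018) and with array weights (0.90, adjusted p = 0.037). It was dropped by a filter that asked for a log2 CPM of at least 0 in all 12 tumors. Limma on recovered reads gave 0.83 (adjusted p = 0.080). Over all genes, 0 were called higher and 0 lower, against 1 higher without the trend and 134 higher and 411 lower with array weights. With single tumors left out the counts were 0 to 25 higher and 0 to 146 lower, with calls only without replicate 2 of the IK group. No scaling moved the median of all genes by over 0.1. Correlated pairs of the 8 genes by Pearson's r numbered 3, and 0 to 2 with replicate 2 of the IK group, 5 alone or 6 alone left out. Pairs with marker lists numbered 12, and 5 to 9. These omissions were chosen after seeing the data. With quantile normalization Adamts10 with endothelium (r = 0.71, adjusted permutation p = 0.11) and Adamts2 with skeletal muscle (r = 0.75, adjusted permutation p = 0.054) no longer passed. Among other named genes near 0, signs turned without replicate 5 alone for Timp3 (0.034, range over single tumors left out -0.34 to 0.034) and Adamts12 (0.0020, range -0.25 to 0.0020) and for Krtcap3 under quantile normalization (0.0087). Trmu turned under quantile normalization (0.0092), median centring (0.0021) and array weights (0.0073), and ranged from -0.041 to 0.017 with single tumors left out. Paqr6 turned under the same 3 settings (0.085, 0.0054 and 0.044) and ranged from -0.058 to 0.048. The cause of these turns was not tested.

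Tumors share only a number: deviations of same-numbered tumors correlated at -0.31 to 0.45, and 1 of 6 IK tumors correlated best with its own number. With a replicate block 0 genes were called, and Papln lay at 0.84 (adjusted p = 0.44, limma). Depth limits Papln most among the 8 genes, at 39 to 95 reads per tumor.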
